A study of Mus musculus with 6 samples.

Results

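The histone H3K36 demethylases examined here were 8 genes: Kdm2a, Kdm4a, Kdm4b, Kdm4c, Kdm4d, Kdm8, Kdm7a and Phf8, of 18193 genes named on the array. They were chosen by gene name alone, as all 21 probe sets whose annotation named 1 of these genes and no other. Expression was measured with Affymetrix mouse genome microarrays in mouse embryonic stem cells (mESCs), pluripotent cells of the early embryo, of mixed 129SV/C57BL/6 background. There were 3 arrays of wild type cells and 3 of cells knocked out for Setd2, the enzyme that trimethylates histone H3 at lysine 36 along transcribed genes, and neither genotype was treated. Both lines grew on feeder cells, which were then depleted by settling on gelatin and by 1 passage without them. The labels call the arrays of a genotype biological repeats and give neither the deleted part of Setd2 nor the number of clones, so p-values measure the spread between these samples, which may be technical.

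Histone demethylases of the Jumonji (JmjC) class remove methyl groups by oxidation, using iron, oxygen and 2-oxoglutarate. Kdm2a acts on dimethylated H3K36 and carries a CXXC zinc finger that binds unmethylated CpG. Kdm4a, Kdm4b and Kdm4c act on trimethylated H3K9 and H3K36 and carry PHD and Tudor domains, which Kdm4d lacks, and Kdm4d is known mainly for H3K9 and for its expression in testis. Kdm8 was described as an H3K36 demethylase and later as a hydroxylase of arginine. Kdm7a and Phf8 are closely related PHD finger enzymes known mainly for H3K9, with H3K27 for Kdm7a and H4K20 for Phf8, so the name of the group fits these last members and Kdm4d only loosely.

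Kdm7a was the member gene whose signal stood farthest from overlap between genotypes: its brightest probe set was 1.63-fold higher in knockout cells (95% interval 1.32 to 2.02), and all 3 knockout arrays lay above all 3 wild type arrays. This difference missed the threshold of 0.05 in the fit without a block (limma adjusted p = 0.0687) and passed it with the replicate number as a block (0.00294). Signals of Kdm4a and Kdm4b were 1.30-fold and 1.34-fold higher by point estimate and passed in neither fit. Kdm4c, Kdm8, Phf8 and the brightest probe set of Kdm2a differed by no more than 0.21 on the log2 scale in either direction. Kdm4d was too dim to be tested.

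In the fit without a block, 0 of the 13 member probe sets bright enough to be tested passed the threshold, where 0.648% of all 27022 tested probe sets did. An unadjusted p under 0.05 was reached by 4 of the 13 and by 11.7% of all tested probe sets. The 4 were 1435867_at and 1456150_at of Kdm7a, 1435340_at of Kdm4a and the dim 1444358_at of Kdm2a, so Kdm7a counts more than once. With the block 2 of the 13 rose and 0 fell, both of them Kdm7a, against 7.88% of all tested probe sets called with the block, 3.49% as higher. The knockout arrays all lay above the wild type arrays at 5 of the 13 and all below at 0. Over all tested probe sets these shares were 9.16% and 8.99%. The 5 included all 3 tested probe sets of Kdm7a, which count 1 gene 3 times. The median difference of the 13 was 0.15 on the log2 scale and that of all tested probe sets 0.01. All 13 differences lay inside the central range of all tested differences, from -0.75 to 0.78, which holds 95% of them. That range pools dim and bright probe sets and takes no account of their spread. By limma p the brightest Kdm7a probe set ranked 267 of the 27022.

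**Figure D1:**
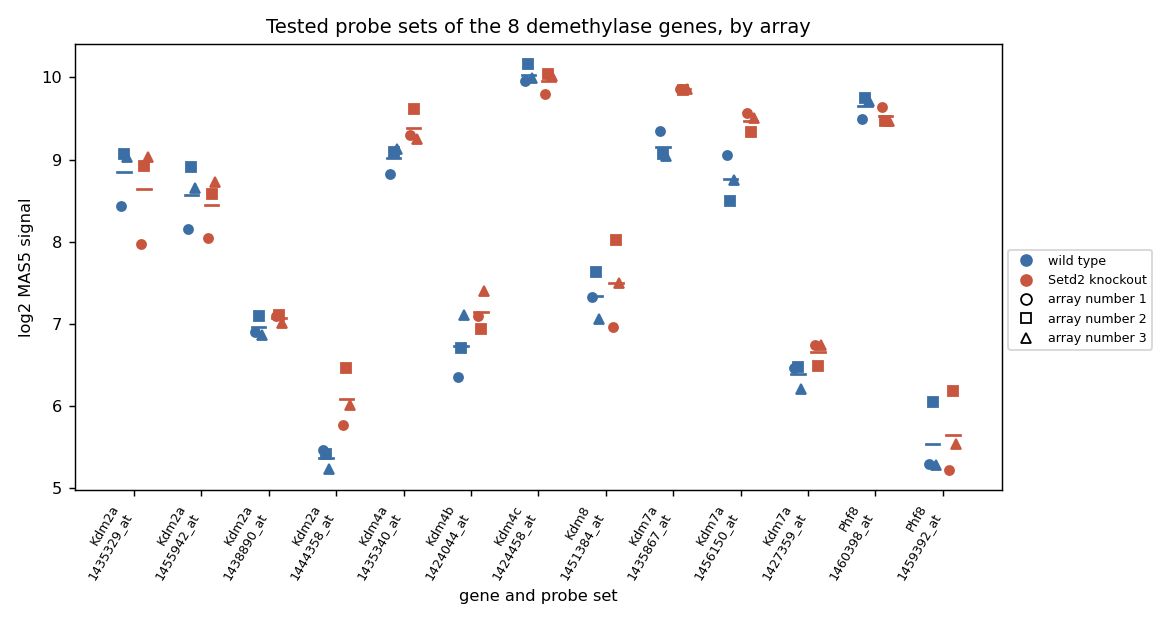
Log2 MAS5 signal of each of the 13 tested member probe sets (x axis) on the 3 wild type (blue) and 3 Setd2 knockout (red) arrays, with array numbers as symbols and short lines at the means of each genotype. The genotypes are apart at all 3 tested Kdm7a probe sets, at 1435340_at of Kdm4a and at 1444358_at of Kdm2a, and overlap at the other 8; levels of different probe sets are not comparable with each other.

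Signals of the whole set of arrays set the frame for these values. The Setd2 probe set (1428555_at) read 10.31, 10.30 and 10.31 on the wild type arrays and 9.37, 9.50 and 9.60 on the knockout arrays, a fitted difference of -0.82 (SE 0.12; limma adjusted p = 0.0272). Leaving out any single array but knockout replicate 1 ended that call (adjusted p between 0.0704 and, without wild type replicate 3, 0.214), as did a fit with no trend (0.0916). Arrays numbered 1 stood apart from the others in both genotypes, along the first principal component (38.0% of variance). Over 12 feeder fibroblast markers the mean level was 8.64 and 8.37 on these 2 arrays and between 9.20 and 9.76 on the other 4, and the ranges of the genotypes overlapped. Not every marker followed this mean, and Fn1 was highest on the array numbered 1 in both genotypes (12.47 and 12.99). None of these markers passed the threshold between genotypes; the brightest, Fn1 and Vim, differed by 0.43 and -0.07, and Fn1 rose with the block (limma adjusted p = 0.00327). Taken at their brightest tested probe sets, the 10 stem cell markers had mean levels from 12.92 to 12.95 on every array. Of these, 0 were called in either fit, and the brightest, Dppa5a and Tdgf1, differed by -0.08 and -0.11. A dimmer tested probe set of Lin28a, 1421749_at, was higher on every knockout array (9.27, 9.27 and 8.24) than on any wild type array (7.45, 7.67 and 7.66). Genes of chromosome 8 were lower in knockout cells (median -0.34 over 709 genes). Among 7 tested primitive endoderm markers, at a list median of -1.18, 2 fell, where 0.736% of all genes were called: Gata6, which missed the threshold with no filter on dim probe sets (limma adjusted p = 0.0611), and Col4a1, which lies on chromosome 8. With the block 5 fell, where 9.87% of all genes were called, and of these Sox17, at 5.25 in knockout cells, passed the filter value of 5.27 only through its wild type arrays. The genotypes differed in the Y-linked Uty too, so an effect of Setd2 loss on the members cannot be told apart from other differences of the lines. No member gene lies on chromosome 8 or Y, and Phf8 lies on chromosome X (median 0.04 over 419 genes).

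Kdm2a, on chromosome 19, had 7 probe sets, 4 of them tested, which differed among themselves in direction. The brightest, 1435329_at, read 8.44, 9.06 and 9.04 on wild type arrays 1 to 3 and 7.97, 8.92 and 9.03 on knockout arrays 1 to 3. The genotypes overlapped, and the lowest array of each was the one numbered 1, as for the mean of the feeder markers. The part of feeder RNA or array number in this was not tested. The difference was -0.21 (95% interval -0.90 to 0.49; limma adjusted p = 0.868), and it was 0.13 without knockout replicate 1.

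The second brightest probe set of this gene, 1455942_at, followed the same arrays. It read 8.16, 8.91 and 8.65 in wild type and 8.05, 8.58 and 8.72 in knockout cells, a difference of -0.12 (-0.69 to 0.45). Probe set 1438890_at varied little, between 6.87 and 7.10 in wild type and between 7.01 and 7.11 in knockout cells, and differed by 0.11 (-0.31 to 0.54). The fourth, 1444358_at, went the other way. It read 5.46, 5.42 and 5.23 in wild type and 5.77, 6.46 and 6.02 in knockout cells, so that every knockout array was higher, by at least 0.31. Its difference of 0.71 (0.02 to 1.40) missed the threshold in limma without the block (adjusted p = 0.412) and with it (0.244). With wild type signals close to the filter value of 5.27, its fold of 1.64 rests on dim signals. Averaged over the 4 probe sets, Kdm2a differed by 0.13 (-0.34 to 0.59; limma adjusted p = 0.878), against -0.21 at the brightest, so these data give no single direction for the gene. The 3 dimmer Kdm2a probe sets had genotype means between 3.56 and 4.88 and overlapping genotypes.

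The Kdm4 family was represented by 1 tested probe set for each of Kdm4a, Kdm4b and Kdm4c. Kdm4a (1435340_at, chromosome 4), a demethylase of trimethylated H3K9 and H3K36, read 8.83, 9.09 and 9.13 in wild type and 9.30, 9.62 and 9.25 in knockout cells. All knockout arrays were higher, the closest pair being 0.13 apart. The difference was 0.38 ± 0.16 (SE; 95% interval 0.01 to 0.74), with limma adjusted p of 0.413 and of 0.0829 with the replicate block. Within array numbers it was 0.48, 0.53 and 0.13. The other Kdm4a probe set was dim, with genotype means of 2.95 and 2.83.

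Kdm4b (1424044_at, chromosome 17) read 6.36, 6.71 and 7.11 in wild type and 7.10, 6.94 and 7.39 in knockout cells. The highest wild type array lay above 2 of the knockout arrays, but within each array number the knockout array was higher, by 0.74, 0.24 and 0.28. The mean difference of 0.42 (-0.16 to 1.00) did not pass in limma (adjusted p = 0.598; 0.272 with the block), and it was 0.24 without wild type replicate 1 and 0.61 without wild type replicate 3. The interval leaves room for a 2.00-fold higher signal.

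Kdm4c (1424458_at, chromosome 4) had the smallest SDs of these 3 probe sets, 0.11 in wild type and 0.13 in knockout cells. It read 9.95, 10.16 and 9.99 in wild type and 9.80, 10.04 and 10.02 in knockout cells, with a difference of -0.08 (-0.38 to 0.21; limma adjusted p = 0.875). At this probe set the unadjusted interval ended at a 1.16-fold higher signal. Set against this paralog within each array, the log2 ratio of Kdm4a to Kdm4c was higher in knockout cells by 0.46, in 3 of 3 knockout arrays against every wild type array. The exact two-sided permutation test gave p = 0.10, the smallest that 3 against 3 arrays allow. The pair was chosen after the values of both genes were seen, so its separation adds no support. Kdm4d (1440105_at, chromosome 9) read 3.99, 4.51 and 5.06 in wild type and 4.90, 3.81 and 3.47 in knockout cells, all below the filter value of 5.27, so no fold is given.

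Kdm8 (1451384_at, chromosome 7) varied more between arrays than between genotypes. It read 7.33, 7.64 and 7.06 in wild type and 6.97, 8.02 and 7.49 in knockout cells, which span the whole wild type range. The difference was 0.15 (-0.51 to 0.82; limma adjusted p = 0.901), and it turned to -0.11 without knockout replicate 2.

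**Figure D2:**
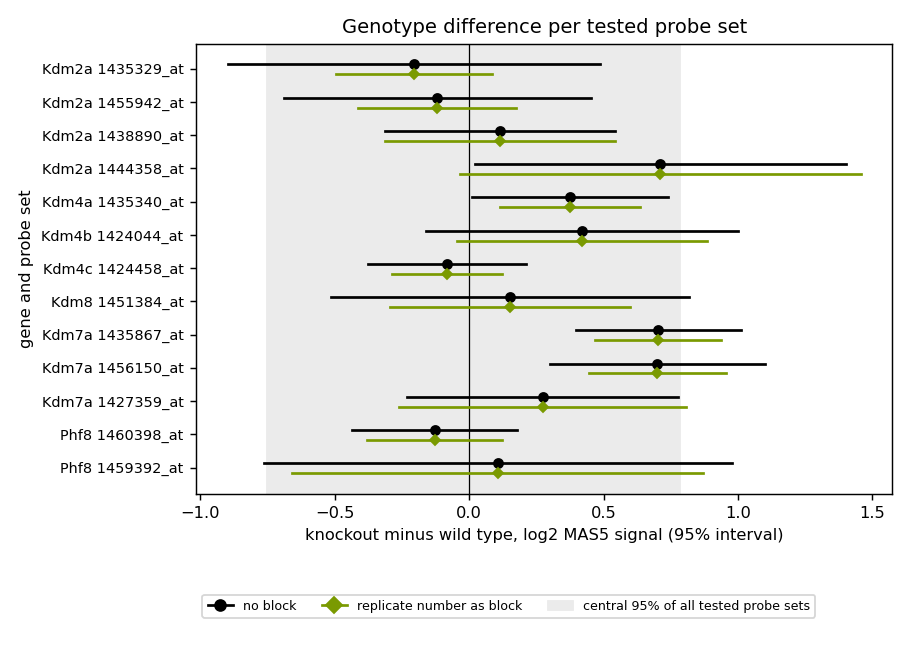
Knockout minus wild type difference in log2 MAS5 signal (x axis) with its 95% interval for each of the 13 tested member probe sets (y axis), fitted without a block (black circles) and with the replicate number as a block (green diamonds); the grey band spans -0.75 to 0.78, the central 95% of all tested probe sets. The two-sided limma adjusted p was below 0.05 for 1435867_at and 1456150_at of Kdm7a with the block, and for no member without it.

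Kdm7a, on chromosome 6, had 5 probe sets, and all 5 had a higher mean in knockout cells. The brightest, 1435867_at, read 9.34, 9.07 and 9.05 in wild type and 9.86, 9.85 and 9.86 in knockout cells. The knockout arrays lay close together (SD 0.0055, n = 3) and at least 0.51 above every wild type array (SD 0.17, n = 3). Its difference of 0.70 ± 0.13 (SE) ranked 267 of the 27022 tested probe sets by limma p. The second, 1456150_at, read 9.06, 8.49 and 8.75 in wild type and 9.56, 9.34 and 9.50 in knockout cells, again without overlap. Its difference was 0.70 ± 0.17 (SE; limma adjusted p = 0.148; 0.00475 with the block), the same in size as that of the first.

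The third tested probe set of Kdm7a, 1427359_at, showed a smaller difference. It read 6.47, 6.48 and 6.21 in wild type and 6.74, 6.49 and 6.74 in knockout cells, where knockout array 2 exceeded the highest wild type array by less than 0.01. The difference was 0.27 (95% interval -0.23 to 0.78; limma adjusted p = 0.715, and 0.562 with the block). The other 2 probe sets share 1 target entry in the annotation and were too dim to be tested. Probe set 1459820_at had means of 4.35 and 5.11 and was higher in knockout cells within every array number, and 1459821_x_at, at 3.25 and 3.76, was lower in knockout cells within number 3 and higher within the others. Averaged over the 3 tested probe sets, Kdm7a was higher by 0.56 (0.24 to 0.88), with limma adjusted p over 12915 genes of 0.151 and, with the block, 0.0185.

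**Figure D3:**
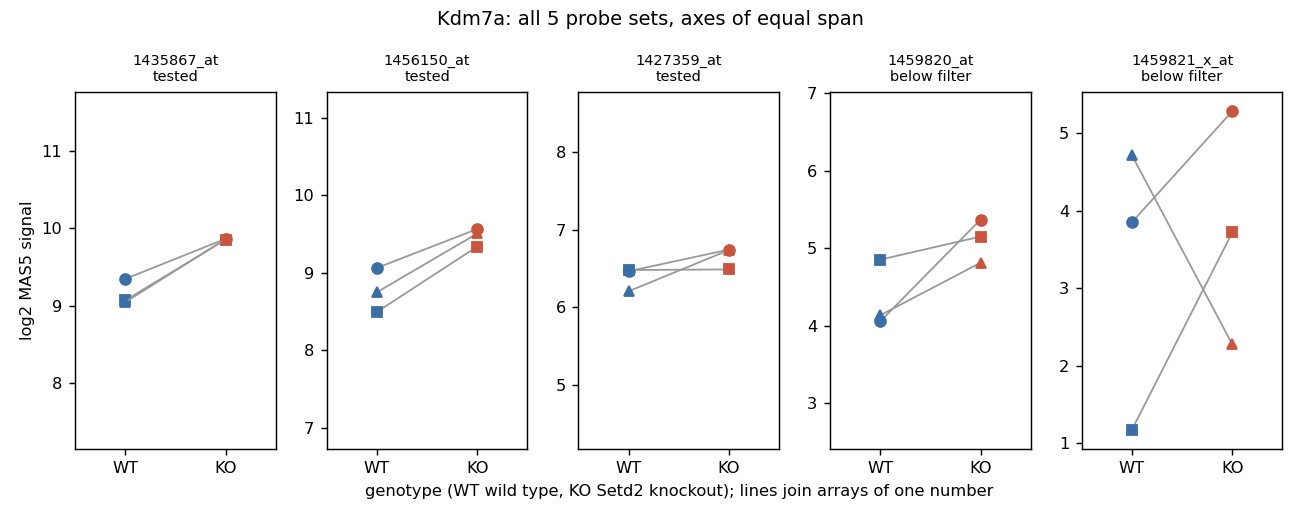
Log2 MAS5 signal (y axes of equal span) of all 5 Kdm7a probe sets in wild type (WT, blue) and Setd2 knockout (KO, red) arrays, with grey lines joining arrays of the same number (circle 1, square 2, triangle 3). At the 2 brightest probe sets the knockout mean is higher by 0.70, and at the dim 1459821_x_at the line of number 3 falls from wild type to knockout.

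The blocked fit was repeated with the arrays of 1 number left out, an alternative added after the data were seen. Without number 1, 2 or 3, the blocked adjusted p in limma of 1435867_at was 0.000101, 0.0220 and 0.0387. For 1456150_at it was 0.000296, 0.0373 and 0.0510, so this call was lost without number 3. In these fits 12.4%, 3.93% and 2.86% of all tested probe sets were called. Without the block and without both arrays numbered 1, 7.52% of all tested probe sets were called, and the same 2 Kdm7a probe sets passed (limma adjusted p = 0.00233 and 0.00743). Within array numbers 1, 2 and 3 the difference was 0.52, 0.78 and 0.81 at 1435867_at and 0.50, 0.84 and 0.76 at 1456150_at. The smallest at each probe set fell in the arrays with the lowest mean feeder marker levels, and the part of feeder RNA in it was not tested.

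Phf8, on chromosome X, is the nearest relative of Kdm7a among the members. Its brightest probe set, 1460398_at, read 9.49, 9.75 and 9.72 in wild type and 9.64, 9.47 and 9.47 in knockout cells, with the genotypes overlapping. The difference was -0.13 (95% interval -0.43 to 0.18, limma adjusted p = 0.789). At this probe set the unadjusted interval ended at a 1.13-fold higher signal. Probe set 1459392_at was dimmer, at 5.29, 6.05 and 5.28 in wild type and 5.22, 6.18 and 5.53 in knockout cells, and differed by 0.11 (-0.77 to 0.98). Averaged over these 2 tested probe sets, Phf8 differed by -0.01 (-0.47 to 0.44). The remaining probe set was dim, at 3.41 and 3.44. The log2 ratio of Kdm7a to Phf8 at their brightest probe sets was higher in knockout cells by 0.83. It ran from -0.68 to -0.15 on wild type and from 0.22 to 0.39 on knockout arrays, and the exact two-sided permutation test gave p = 0.10, the smallest the design allows. This and the ratio of Kdm4a to Kdm4c were the 2 ratios computed, and the Benjamini-Hochberg adjusted p of both permutation tests was 0.10. Both pairs were chosen after their values were seen, so neither the separation of Kdm7a to Phf8 nor its p adds support.

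The 250 bases upstream of the annotated start sites of Kdm7a and Phf8 are printed to show how unlike these related genes are there, with CpG dinucleotides, which the CXXC finger of Kdm2a binds when unmethylated, in capitals. The sequences are from RefSeq, build GRCm38.p6, written 5′ to 3′ on the strand of the gene: Kdm7a at chr6:39206774-39207023 on the minus strand and Phf8 at chrX:151520422-151520671 on the plus strand.
Kdm7a: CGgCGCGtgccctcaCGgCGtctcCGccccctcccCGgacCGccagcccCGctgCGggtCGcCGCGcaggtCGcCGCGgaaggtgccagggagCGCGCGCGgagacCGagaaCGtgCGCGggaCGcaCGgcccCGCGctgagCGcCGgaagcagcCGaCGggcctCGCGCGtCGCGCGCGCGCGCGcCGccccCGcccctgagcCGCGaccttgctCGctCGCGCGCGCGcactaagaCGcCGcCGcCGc
Phf8: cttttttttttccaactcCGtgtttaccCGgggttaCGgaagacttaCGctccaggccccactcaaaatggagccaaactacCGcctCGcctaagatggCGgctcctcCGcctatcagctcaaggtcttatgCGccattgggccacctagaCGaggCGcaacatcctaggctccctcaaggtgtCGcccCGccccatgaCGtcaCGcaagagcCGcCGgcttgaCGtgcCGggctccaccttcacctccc
The Kdm7a window held 56 CpG, a number reached by 2 of the 32851 windows of this length in the table, itself included. Phf8 held 19, reached by 19.7% of windows, and the median window held 6. Among the other members in the table Kdm4a held 12, Kdm4d 14, Kdm8 7, and the windows of Kdm4c 0 and 19. The GC box GGGCGG, searched on both strands, occurred at 3 positions in the Kdm7a window and at 1 in those of Phf8 and Kdm8, against 32.7% of all windows with at least 1. CCAAT, also on both strands, was absent from the Kdm7a window and present in that of Phf8, as in 33.8% of all windows, and the palindrome CACGTG was in neither (6.02% of all windows). These are matches of letters, and the arrays measured no methylation or binding.

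Genes listed for the same mark or chemistry were taken at their brightest tested probe set, where 0.736% of all 12915 genes were called without the block and 9.87% with it. By this measure the 7 tested member genes had 0 called, a median of 0.15 and, with the block, 1 higher (Kdm7a), where 4.13% of all genes were higher. The median of all genes was -0.00056. Of 9 tested genes listed as H3K36 methyltransferases, 1 fell in both fits, Setd2 itself, with a list median of -0.15. Nsd1 and Nsd2, which dimethylate H3K36, differed by -0.03 (-0.63 to 0.56) and -0.36 (-0.75 to 0.03). The dimmer tested probe sets of Nsd2 differed by -0.74 (-1.28 to -0.20), -0.67 (-1.34 to -0.001) and -0.24 (-0.91 to 0.43), and none was called in either fit. A dimmer probe set of Nsd3, 1447931_at, differed by -0.54 and was called with the block only (limma adjusted p = 0.0328). The brightest of Nsd3 differed by -0.18 and was called in neither fit.

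Of 18 other tested histone demethylases 1 rose, the Y-linked Uty, from 3.91 ± 0.76 to 8.62 ± 0.34 (mean ± SD, n = 3 each; limma adjusted p = 0.00199). Its wild type mean lay below the filter value of 5.27, so it was tested only through the knockout arrays and had to differ, and this count supports nothing about the list. The probe sets of Kdm5d, also Y-linked, were too dim to be tested, with genotype means between 2.14 and 4.99. With the block, Kdm6b, a demethylase of H3K27, also rose, by 0.45 (limma adjusted p = 0.0225), and Jarid2, a Polycomb partner without demethylase activity, fell by 0.34 on the log2 scale (0.0156). Kdm2b, the paralog of Kdm2a, differed by 0.10 (-0.19 to 0.40), and the list median was 0.03.

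Genes that make or use 2-oxoglutarate, or import iron, had a list median of -0.22 over 15 tested members, of which 2 fell and 0 rose. D2hgdh, which oxidises D-2-hydroxyglutarate to 2-oxoglutarate, went from 9.60 ± 0.07 to 8.80 ± 0.10 (mean ± SD, n = 3 each; limma adjusted p = 0.0418; 0.00190 with the block). Got2, the mitochondrial aspartate aminotransferase, went from 12.93 ± 0.06 to 12.41 ± 0.06 (0.0250; 0.00109 with the block), and it lies on chromosome 8, whose genes were lower as a whole. With the block Idh3b and Glud1 fell too, by 0.31 and 0.29 on the log2 scale. Gpt2 of this list, also on chromosome 8, differed by -0.33 and was called in neither fit. The list median was not corrected for the lower level of this chromosome. The count without the block was 0 when any array but knockout replicate 1 was left out, and 0 without the intensity trend.

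**Figure D4:**
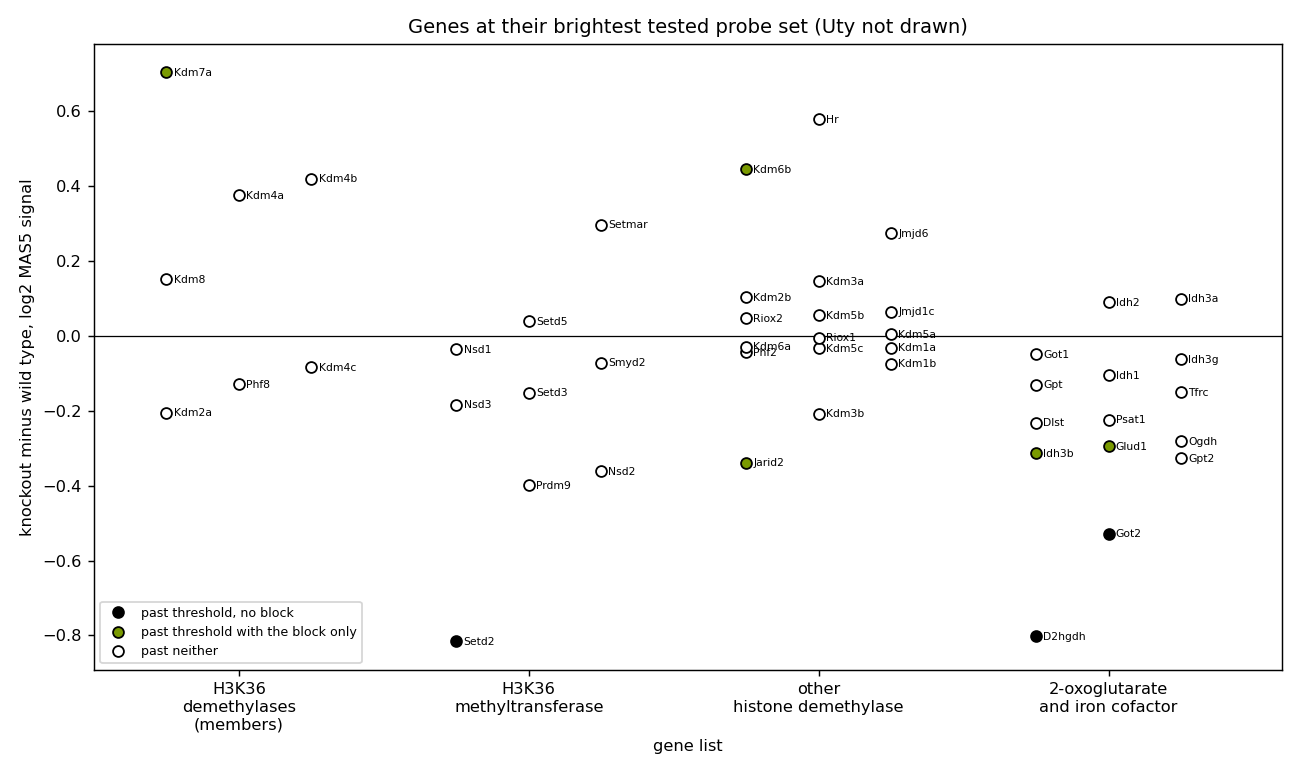
Knockout minus wild type difference in log2 MAS5 signal (y axis) of each gene at its brightest tested probe set, for the 7 tested members and 3 other gene lists (x axis), filled black where limma's adjusted p was below 0.05 without the block, green where only with it. Points are spread sideways for legibility, Uty is outside the axis at 4.71, and Kdm7a is the member at 0.70.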

How the data were processed

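Total RNA of 6 samples was hybridised to 1 array each. The deposited values were log2 signals, which the authors made with MAS5, the Affymetrix algorithm that gives 1 signal per probe set, per the submitters' processing notes. Its version and scaling target are not given in the sources used here. The log2 scale was settled from the values: the antilogs, trimmed by 2% at both ends, averaged 497.0 to 497.3 on every array. Values were used without further normalization. Detection calls were not used here, and precision is limited by the number of arrays.

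Of 45037 probe sets, 34945 named 1 gene, 932 several and 9160 were unnamed here. Symbols of 34741 were updated through their gene identifiers with RefSeq's table of GRCm38.p6. The 27022 probe sets with a mean at or above the 40th percentile (5.27) were tested, knockout minus wild type, with limma 3.58.1 in R 4.3.3 (lmFit, eBayes with an intensity trend, two-sided, Benjamini-Hochberg over all tested, threshold 0.05). Of the 21 member probe sets 13 passed this filter, all with both genotype means above it. Intervals are 95% and unadjusted.

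Both genotypes carry numbers 1 to 3 in their titles, without a statement of what the numbers mean. Same-numbered arrays deviated together from their genotype means, at correlations of 0.50, 0.23 and 0.24 across probe sets, all above the bound of 0.1 for treating numbers as pairs, so the fit with the number as a block stands beside the one without where a call differs. Unlike numbers gave -0.37 to 0.23. Among them, wild type 3 with knockout 2 gave 0.17 and wild type 2 with knockout 3 gave 0.23, also above the bound. Deviations from a mean of 3 arrays cancel out, so once numbers 1 go together, arrays 2 and 3 must on the whole correlate across genotypes. The bound therefore cannot settle the pairing of 2 with 2 and 3 with 3.

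The genes named were all members at all probe sets, Setd2, and from each other list up to 4 genes called, or the 2 brightest. Non-overlapping member probe sets were given array by array. Kdm2b, Kdm5d, Nsd1, Nsd2, Nsd3, Gpt2, Lin28a and the genes called only with the block were added after their values were seen. Members and lists were chosen with earlier results of these data known. The fit was tested on simulated data. Promoter sequences matched 6 of the 8 members by symbol.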

Additional observations from a re-analysis of the deposited data

How the results depend on the processing

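Without the intensity trend, 57 of all tested probe sets were called in place of 175, 0 of the methyltransferases and 0 of the cofactor genes, and Setd2 differed by -0.82 without passing. With the replicate block the counts were 2129 over all, 2 for the member probe sets, 3 for the other demethylases, 4 for the cofactor genes and 1 for the feeder markers. Without both arrays numbered 1 they were 2033, 2, 3, 5 and 1. A filter at the 60th percentile removed Uty and left 0 other demethylases called. Leaving out single arrays, the count over all ran from 31 (without wild type replicate 3) to 431 (without knockout replicate 1), those of methyltransferases from 0 to 1 and of cofactor genes from 0 to 2, Setd2 from -0.87 to -0.76, and the member count stayed at 0. With the block and 1 array number left out, chosen after seeing the data, the member count ran from 1 to 2.

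No member changed direction under quantile normalization, centring on array medians, another filter, log2(signal + 32), no trend or the block. Without single arrays, 4 members whose difference was not called changed sign: 1435329_at of Kdm2a reached 0.13, 1455942_at of Kdm2a 0.05 and 0.082, 1451384_at of Kdm8 -0.11, and 1459392_at of Phf8 -0.02, -0.02 and -0.16. Ranges over single arrays left out were -0.41 to 0.13, -0.33 to 0.082, -0.11 to 0.41 and -0.16 to 0.36. Kdm2a was 0.13 as the mean of its tested probe sets. The cause was not tested. Both bright Kdm7a probe sets were called with the block and without both arrays numbered 1, and in no other setting tried without the block, where the difference of 1435867_at lay between 0.65 and 0.80.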
